A study of Mus musculus with 8 samples.

Results

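The 10 genes described here form a list of hair follicle stem and progenitor genes. Krt15 and Krt75 are keratin genes, Lgr5, Lgr6 and Lrig1 receptor genes, and Cd34 a surface protein gene. Sox9, Lhx2, Tcf7l1 and Nfatc1 are transcription factor genes. The genes were found by an exact match of the deposited gene symbol, and Tcf3, an older name of Tcf7l1, was not accepted. All 10 genes of 16094 in the catalogue were present, with 69 of the 46376 CAGE clusters that carried a gene symbol, out of 84475 clusters in all. CAGE (cap analysis of gene expression) sequences the capped 5′ ends of RNA. A cluster of its tags is taken here as a stretch of DNA in which transcripts start. Whether each cluster is a separate start of transcription was not tested. Libraries came from 8 C57BL/6 mice aged 28 days, whose facial skin was taken. In 4 of them the skin was lesional and the genotype was Cre-positive with floxed Ikk2 on both alleles (Ikk2 is Ikbkb, a kinase that activates NF-κB). The driver of Cre is Nestin-cre in the design text, whereas the genotype label of each of these mice reads Nectin-cre. The other 4 were non-lesional skin of mice labelled only as control, and no label states which alleles these carried.

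The 8 columns of values in the deposited table have names that match no label of a mouse or a group, and they were not used. The level of each gene in each mouse, and any difference between lesional and control skin, is therefore not reported. The values below are positions and spans of clusters in a catalogue of the whole series, which states neither the group nor the cell type that a cluster came from. Whole skin was used, so a cluster of these genes does not show that it arose in a follicle stem cell. Basal keratinocyte genes of skin were in the catalogue, with 10 clusters for Krt5 and 28 for Krt14.

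The hair follicle renews itself in cycles from stem cells in the bulge, a niche below the sebaceous gland, and from the hair germ beneath it. Bulge cells in rest carry Cd34, Krt15, Sox9, Lhx2, Tcf7l1 and Nfatc1, and Lgr5 marks the lower bulge and the germ. Cells of the isthmus and junctional zone, above the bulge, carry Lgr6 and Lrig1, whereas Krt75 is a keratin of the companion layer, which lies between the outer and inner root sheaths. Wnt signalling, which acts through the TCF/LEF factors and is strengthened by R-spondins bound to Lgr receptors, starts a new growth phase.

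Start regions of the genes differ in their base composition. The windows of Lhx2 below are shown because it has broad clusters in 2 separate start regions in this catalogue. Krt75 and Cd34 are shown because they lack the dense CG dinucleotides seen at Lhx2. Each window covers 250 bases before and 50 bases after an annotated start, from RefSeq on GRCm38.p6, read 5′ to 3′ on the strand of the gene, and capitals mark every CG dinucleotide. The clusters are on mm9, so where in a window a cluster lies was not determined. The windows are chr2:38339031-38339330 (plus strand) and chr2:38351058-38351357 (plus strand) for Lhx2, chr15:101573855-101574154 (minus strand) for Krt75 and chr1:194938571-194938870 (plus strand) for Cd34.
Lhx2, upstream start: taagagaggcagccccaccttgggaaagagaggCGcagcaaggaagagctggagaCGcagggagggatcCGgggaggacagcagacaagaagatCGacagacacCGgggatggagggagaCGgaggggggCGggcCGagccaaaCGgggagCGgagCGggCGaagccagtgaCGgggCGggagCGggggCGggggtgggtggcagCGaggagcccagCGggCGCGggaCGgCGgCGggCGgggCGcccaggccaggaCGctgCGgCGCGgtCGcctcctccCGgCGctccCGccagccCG
Lhx2, downstream start: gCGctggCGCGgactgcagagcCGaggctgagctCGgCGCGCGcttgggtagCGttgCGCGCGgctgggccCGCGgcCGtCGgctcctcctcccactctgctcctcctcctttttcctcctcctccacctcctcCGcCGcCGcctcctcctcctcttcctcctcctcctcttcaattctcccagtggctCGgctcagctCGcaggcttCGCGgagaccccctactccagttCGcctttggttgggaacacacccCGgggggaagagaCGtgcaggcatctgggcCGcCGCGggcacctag
Krt75: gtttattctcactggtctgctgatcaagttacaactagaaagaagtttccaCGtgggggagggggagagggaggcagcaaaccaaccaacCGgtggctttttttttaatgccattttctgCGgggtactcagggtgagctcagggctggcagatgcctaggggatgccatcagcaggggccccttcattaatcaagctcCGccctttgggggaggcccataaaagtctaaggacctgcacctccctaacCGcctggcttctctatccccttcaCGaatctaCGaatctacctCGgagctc
Cd34: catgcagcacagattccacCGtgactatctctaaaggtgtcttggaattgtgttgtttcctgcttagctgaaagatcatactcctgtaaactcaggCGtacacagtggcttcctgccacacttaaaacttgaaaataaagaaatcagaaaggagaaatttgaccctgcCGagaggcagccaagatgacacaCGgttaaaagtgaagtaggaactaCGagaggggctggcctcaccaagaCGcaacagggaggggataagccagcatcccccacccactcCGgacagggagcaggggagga

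The Lhx2 windows held 34 and 29 CG dinucleotides, and the windows of Krt75 and Cd34 held 8 and 7. The median of all 32851 windows in the RefSeq table was 7. Observed over expected CG, which corrects for the content of C and G, was 0.89 and 0.84 at Lhx2, 0.37 at Krt75 and 0.37 at Cd34, against a median of 0.38. Windows were used for 6 of the 10 genes, and none was used for Krt15, Lgr5, Sox9 or Nfatc1. Any window on chromosome 18, where Nfatc1 lies, was left out. The windows of Lrig1 (35 CG dinucleotides), Tcf7l1 (34) and Lgr6 (24) were also rich in CG, at ratios of 0.91, 0.80 and 0.76. Krt75 and Cd34 thus lay near the median window and the other 4 genes above it.

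Short motifs were searched on both strands of these 7 windows, and a match is only a run of letters. The GC box GGGCGG was found in 5 windows, of Krt75, Lgr6, Lrig1, Tcf7l1 and the upstream start of Lhx2, which alone held 4 matches at 123, 76, 64 and 15 bases before the start. It was found in 35.7% of all windows. The CCAAT box (CCAAT, 37.4% of all windows) was found once, 179 bases before the start of Lrig1. The NF-κB consensus motif, present in 8.46% of all windows, was found once, on the opposite strand 39 bases before the downstream start of Lhx2. The TATA box TATAAA (13.6% of all windows) and the TCF/LEF cores CTTTGAA (5.14%) and CTTTGAT (3.73%) were not found in these windows. These strings had to match exactly, so a near match was not counted. The SOX core AACAAT (10.7% of all windows) was found once in Lgr6, 63 bases before its start, and once on the opposite strand in Lrig1, 22 bases before its start. The longer SOX forms ACAATAG (2.37%), ACAATGG (3.66%) and ACAAAGG (5.88%) were not found. None of these motifs contains another, although AACAAT can overlap ACAATAG and also ACAATGG.

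Each of the 10 genes had at least 2 clusters, a property of 54.3% of all genes with a cluster. The median was 5.5 clusters per gene, with a range from 2 to 21, against a median of 2 for all 16094 genes. Krt15 had 21, Sox9 10, Krt75 9, Lhx2 7, Lgr6 6 and Lrig1 5. Tcf7l1 had 4, Lgr5 3, and Cd34 and Nfatc1 had 2 each, the median of all genes. At least 5 clusters were found for 6 of the 10 genes and for 18.3% of all genes, and at least 10 for 2 of the 10 (Krt15 and Sox9) and for 5.06% of all genes. For comparison, 57.2% of protein-coding symbols in RefSeq had any cluster. This share rests on exact matches of symbols. A gene that the catalogue holds under another symbol therefore counts as without a cluster. Each of the 10 genes lay on 1 chromosome and 1 strand, and none of the 69 clusters had been given to a second gene.

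**Figure D1:**
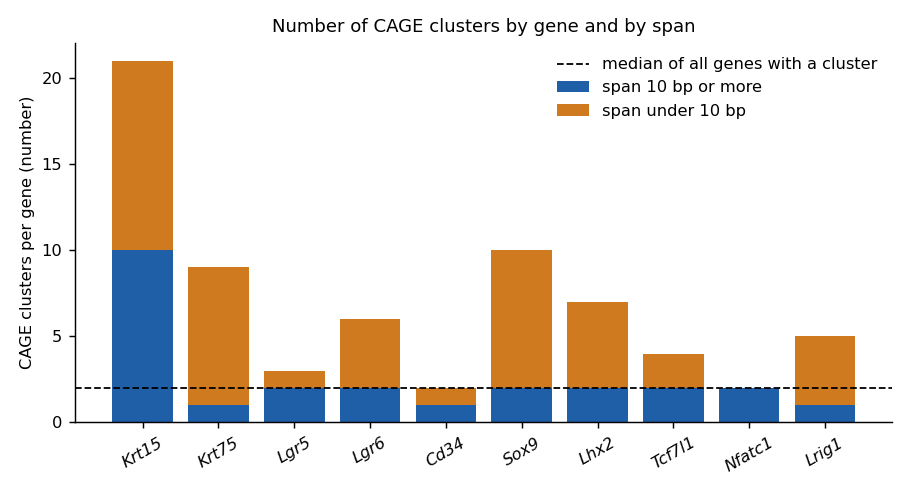
Number of CAGE clusters of each gene (vertical axis), divided into clusters spanning 10 bp or more (blue) and under 10 bp (orange), with the median of all genes with a cluster as a dashed line at 2. Krt15 stood highest with 21, of which 10 spanned at least 10 bp, and Cd34 and Nfatc1 stood at the median.

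Narrow clusters made up most of these counts. Of the 69 clusters, 44 (63.8%) spanned under 10 bp, as did 48.3% of all clusters with a symbol, and 42 (60.9%) spanned 2 to 5 bp. Without Krt15, which held 21 of the 69, the share under 10 bp was 33 of 48 (68.8%). The span is the deposited end minus the deposited start. Krt75 had 8 narrow clusters of 9 and Sox9 8 of 10, whereas both Nfatc1 clusters were wide. At least 1 cluster of 10 bp or more was found for all 10 genes and for 91.2% of all genes. Why clusters differ in span was not tested.

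The widest cluster of each gene ranged from 69 bp at Krt75 to 208 bp at Cd34, with a median of 132 bp against 110 bp for all genes. It was 100 bp or more for 7 of the 10 genes, beside 56.0% of all genes. Cd34 (208 bp), Lhx2 and Nfatc1 (197 bp each) and Lrig1 (194 bp) had the broadest. Of all genes, 97.1% had a narrower widest cluster than Cd34, and 92.4% a narrower one than Lhx2 or Nfatc1. Krt75 (69 bp), Lgr6 (86 bp) and Tcf7l1 (95 bp) lay below the median of all genes. Of the 6 genes whose RefSeq windows were used, the 2 with few CG dinucleotides had the widest (Cd34) and the narrowest (Krt75) such cluster.

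**Figure D2:**
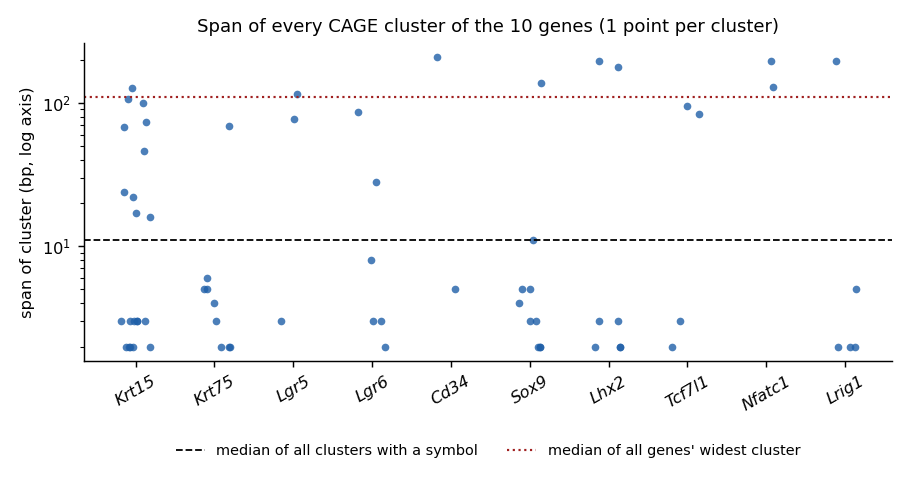
Span of each of the 69 clusters (vertical axis, bp on a log scale) by gene, 1 point per cluster. The dashed line at 11 bp is the median of all clusters with a symbol and the dotted line at 110 bp the median of the widest cluster of all genes. Sox9, Lrig1, Krt75 and Cd34 each had a single cluster above 50 bp, well apart from their narrow ones.

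Krt15 encodes a type I keratin of basal bulge keratinocytes. Its 21 clusters ran over 3126 bp on the minus strand of chromosome 11 (mm9), from 99994733 to 99997859, and more of them than of any other of the 10 genes spanned at least 10 bp, namely 10. The most upstream cluster (99997842 to 99997859) spanned 17 bp, and clusters of 16 bp and 24 bp followed 475 bp and 592 bp downstream of its upstream edge. The widest, of 126 bp (99995519 to 99995645), was the 18th along the direction of transcription, 2214 bp from that edge. The clusters of 106 bp and 100 bp came after it, so its 3 widest clusters all lay downstream of 17 of the other 18. The largest gap between neighbours was 502 bp. The annotated gene is 4191 bp long in RefSeq (GRCm38), and GENCODE vM21, on the same build, lists 2 starts 1530 bp apart. Which of the 21 clusters are exonic was not determined, because the annotation used here is on another build. A further cluster of 76 bp without a symbol lay on the same strand 3333 bp downstream of the upstream edge.

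Other keratin genes of the basal layer and outer root sheath had from 9 to 28 clusters, beside 21 for Krt15. Krt14, the basal type I keratin gene, had 28 clusters over 3062 bp with the widest at 191 bp. Krt17 had 16 over 745 bp, Krt16 10 over 1079 bp, Krt5 10 over 598 bp and Krt6a 9 over 737 bp. Krt79, a keratin gene of the infundibulum, had 16 over 814 bp. Of these 7 keratin genes, Krt15 and Krt14 had the longest extents. Keratin genes are related copies, and how far reads are shared between them was not examined.

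The 9 clusters of Krt75 lay within 650 bp on the minus strand of chromosome 15. Its only cluster of 10 bp or more spanned 69 bp (101404273 to 101404342), the fourth along the gene and 135 bp from the upstream edge. The others spanned 2 to 6 bp, with 3 upstream of the broad cluster and 5 downstream. The annotated gene is 10562 bp long (RefSeq, GRCm38). On the same strand within 10000 bp downstream lay 19 clusters with no symbol, the widest of 145 bp at 3593 bp. Whether these arise within the Krt75 transcript was not determined.

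Lgr5 encodes a receptor for R-spondins and marks cycling stem cells of the lower follicle. Its 3 clusters lay within 323 bp on the minus strand of chromosome 10, with 77 bp (115024800 to 115024877) first, 3 bp (115024772 to 115024775) next and 115 bp (115024554 to 115024669) last. The gaps on either side of the narrow cluster were 25 bp and 103 bp. Lgr6, the related receptor gene of the isthmus, had 6 within 241 bp on the minus strand of chromosome 1. They spanned, from upstream, 3 bp (137001951 to 137001954), 28 bp (137001915 to 137001943), 2 bp (137001838 to 137001840), 86 bp (137001740 to 137001826), 3 bp (137001731 to 137001734) and 8 bp (137001713 to 137001721). The annotated gene lengths are 137467 bp for Lgr5 and 122075 bp for Lgr6 (RefSeq, GRCm38). GENCODE lists further starts far downstream of the first, up to 128781 bp away for Lgr5 and 87497 bp for Lgr6. No cluster carried either symbol at such a distance. GENCODE also lists starts far beyond the last cluster for Tcf7l1 (up to 158984 bp), Nfatc1 (104096 bp) and Lrig1 (94765 bp).

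All 9 genes on the R-spondin list, Lgr5 and Lgr6 included, had a cluster, beside 57.2% of protein-coding symbols. Lgr4, the third receptor gene, had 3 clusters with a gap of 57858 bp. The ligand genes Rspo1, Rspo2 and Rspo3 had 1 cluster each, of 187, 31 and 100 bp, and Rspo4 had 2. The genes of the ubiquitin ligases that R-spondins hold back, Znrf3 and Rnf43, had 3 and 1. Lgr6, with 6, had the most clusters of the 9 genes on this list, but with clusters of at least 10 bp it had 2, as did Lgr5 and Znrf3.

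Lrig1 encodes a transmembrane protein that restrains EGF receptor signalling and keeps junctional zone stem cells quiescent. Its 5 clusters, on the minus strand of chromosome 6, ran over 21966 bp, the longest extent of the 10 genes. The only broad one, of 194 bp (94650062 to 94650256), lay 113 bp from the upstream edge, preceded by clusters of 5 bp (94650364 to 94650369) and 2 bp (94650322 to 94650324). A cluster of 2 bp (94649454 to 94649456) lay 606 bp beyond it. The last, also of 2 bp (94628403 to 94628405), followed after 21049 bp, the largest gap of any of the 10 genes. Lrig2 and Lrig3 had 3 clusters each, within 360 and 372 bp.

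Cd34 encodes a sialomucin of the cell surface that marks bulge cells in mouse skin and also blood progenitors, endothelium and some fibroblasts. Its 2 clusters on the plus strand of chromosome 1 spanned 208 bp (196764986 to 196765194) and, 10 bp further, 5 bp (196765204 to 196765209). They covered 95.5% of a stretch of 223 bp, the shortest extent of the 10 genes. GENCODE lists 5 starts for Cd34 within 176 bp, a stretch shorter than the broad cluster. A cluster of 85 bp without a symbol lay 9046 bp downstream on the same strand. Genes of the other cell types that carry Cd34 were also in the catalogue: all 5 endothelial genes (1 to 3 clusters each, including Pecam1 with 2), all 4 fibroblast and preadipocyte genes (including Pdgfra with 8) and all 3 mast cell and progenitor genes (including Kit with 1). The cells in which the Cd34 cluster arose cannot be told apart from this catalogue.

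Sox9 is a SoxE transcription factor needed to form and maintain bulge cells. It had 10 clusters over 2831 bp on the plus strand of chromosome 11. The first and widest spanned 138 bp (112643492 to 112643630) and the second 11 bp. The other 8 spanned 2 to 5 bp, 4 of them within 807 bp of the upstream edge. A gap of 1767 bp parted the cluster of 5 bp at 112644294 to 112644299 from the cluster of 2 bp at 112646066 to 112646068, and the last (112646320 to 112646323) spanned 3 bp. GENCODE lists a single start for Sox9. Of the other SoxE genes, Sox8 had 1 cluster, of 9 bp, and Sox10 had 2.

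Lhx2, a LIM homeobox factor that holds bulge cells in their undifferentiated state, had 7 clusters on the plus strand of chromosome 2. Its broad clusters lay in 2 start regions. The upstream region was a single cluster of 179 bp (38194743 to 38194922). After a gap of 11662 bp came the widest cluster, of 197 bp (38206584 to 38206781), followed closely by clusters of 3 bp each, 4 bp and 8 bp further on. Clusters of 2 bp lay at 38207204 to 38207206 and 38207248 to 38207250, and after another 1578 bp the last lay at 38208828 to 38208830. The upstream edges of the broad clusters were 11841 bp apart on mm9. The starts of the RefSeq windows printed above were 12027 bp apart on GRCm38, a spacing 186 bp larger. GENCODE lists 7 starts for Lhx2 over 14521 bp. Only spacings were compared, and no coordinate was moved between builds. The related gene Lhx9 had no cluster under that symbol among those analysed here.

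Tcf7l1 (also called Tcf3 in stem cell work) encodes the TCF factor that represses Wnt targets in resting bulge cells. Its 4 clusters lay within 307 bp on the minus strand of chromosome 6. A cluster of 84 bp (72739171 to 72739255) and one of 95 bp (72738969 to 72739064) were parted by 107 bp, and clusters of 3 bp (72738955 to 72738958) and 2 bp (72738948 to 72738950) followed. The symbol Tcf3, which had 9 clusters, lay on chromosome 10 and not on chromosome 6, so those clusters belong to another gene. Among the TCF/LEF genes, Tcf7l2 had 15 clusters with a gap of 151855 bp, Lef1 had 14 and Tcf7 had 5. Tcf7l1 had the fewest clusters of the 4, but with clusters of at least 10 bp it had 2 and Tcf7 had 1.

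Nfatc1, a calcineurin-regulated factor that keeps bulge cells quiescent, is known to be transcribed from alternative promoters. On the minus strand of chromosome 18 it had clusters of 197 bp (80909726 to 80909923) and 129 bp (80904812 to 80904941), with a gap of 4785 bp. It was the only gene of the 10 without a cluster under 10 bp. The upstream edges of its 2 clusters were 4982 bp apart on mm9. GENCODE lists 5 starts on GRCm38, the later ones 13, 305, 4898 and 104096 bp from the first. No cluster carried the symbol at the last of these distances. Among the other NFAT genes, Nfatc2 had 3 clusters with a gap of 11371 bp, Nfat5 11 with a gap of 45131 bp, Nfatc3 5 within 283 bp and Nfatc4 1.

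**Figure D3:**
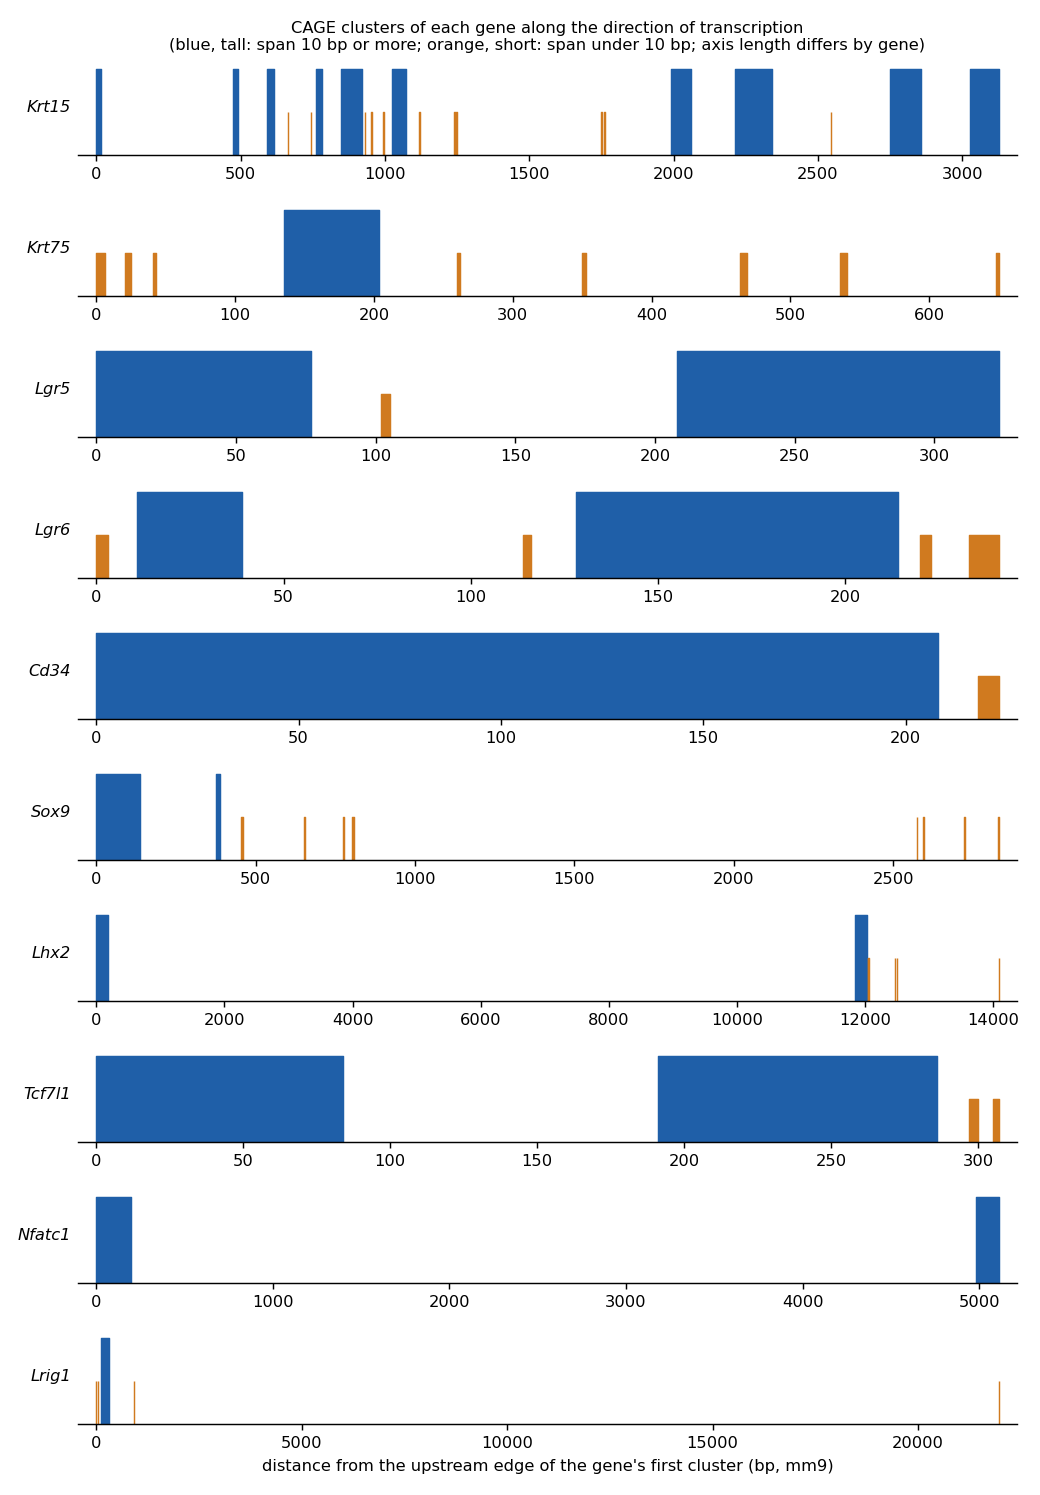
Clusters of each gene by distance from the upstream edge of its first cluster (horizontal axis, bp on mm9, with its own length for each gene), in the direction of transcription. Bars are drawn to their span, blue and tall for 10 bp or more and orange and short for under 10 bp. Lhx2 and Nfatc1 show broad clusters at separate places, 11662 and 4785 bp apart, and Lgr5, Lgr6, Cd34 and Tcf7l1 a single stretch of at most 323 bp.

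Neighbouring clusters at least 1000 bp apart were found for 4 of the 10 genes (Sox9, Lhx2, Nfatc1 and Lrig1), beside 15.5% of all genes with a cluster. When only clusters of at least 10 bp were counted, Lhx2 and Nfatc1 were the 2 that kept a gap of at least 1000 bp. The share was 9.65% of the 14678 genes with a cluster of that span. In Sox9 and Lrig1 the clusters beyond the gap spanned 2 to 4 bp. Lhx2 had a second gap, of 1578 bp, beyond which a cluster spanned 2 bp. Most gaps were short: of 59 between neighbouring clusters of the 10 genes, 34 (57.6%) were at most 100 bp and the median was 67 bp, beside 57.6% and 65 bp for all genes. The stretch from the first to the last cluster had a median of 1740.5 bp for the 10 genes and 670 bp for all genes with at least 2 clusters. Without Krt15 the median was 650 bp.

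The surroundings of the genes were also described, within 10000 bp of the upstream edge of the first cluster. Downstream, this window covers part or all of the gene, at annotated lengths from 4191 bp (Krt15) to 162675 bp (Tcf7l1). Clusters counted downstream can therefore lie within the gene itself. An opposite-strand cluster within 1000 bp upstream was present for 2 of the 10 genes, beside 23.5% of all genes on 1 chromosome and strand. At Sox9 it was a cluster of 10 bp (112643297 to 112643307), given to the long non-coding RNA gene BC006965, whose nearest edge lay 185 bp upstream. At Nfatc1 it was a cluster of 3 bp without a symbol, 52 bp upstream. Same-strand clusters without a symbol lay downstream for 5 of the 10 genes (Krt75 with 19, Sox9 with 4, Krt15 and Lrig1 with 2 each, Cd34 with 1), beside 24.3% of all genes. Krt15 had 6 such clusters upstream, between it and a cluster of Krt19 that lay 9374 bp away on the same strand. Whether these arise within the Krt19 transcript was not determined. Lgr5, Lgr6, Lhx2 and Tcf7l1 had no other cluster in this window. Their nearest clusters of another named gene were 27317 bp (Ptpn7, near Lgr6) to 156424 bp (Zfc3h1, near Lgr5) away. The window did not reach the downstream start region of Lhx2, which began 11841 bp from the upstream edge.

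**Figure D4:**
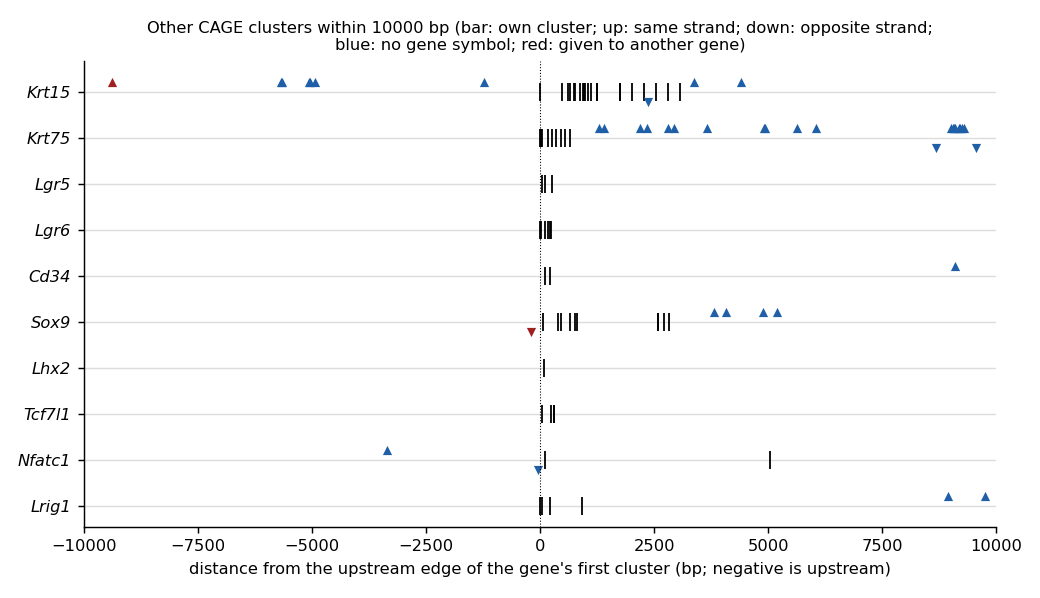
Other clusters within 10000 bp of each gene's first cluster, by distance along the direction of transcription (horizontal axis, bp). Bars mark the gene's own clusters, upward triangles the same strand, downward triangles the opposite strand, blue no symbol and red another gene's symbol. Krt75 shows 19 same-strand clusters downstream, while Lgr5, Lgr6, Lhx2 and Tcf7l1 show none.

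Further genes were taken from lists of follicle compartments, of other skin cell types and of the families of the 10 genes. Over all these lists, 70 of 73 genes had a cluster under the symbol listed, beside 57.2% of protein-coding symbols. The 3 without were Plet1, Sox2 and Lhx9, and other names of these genes were not searched. With clusters of at least 10 bp the count was 68 of 73, beside 54.1%. All 22 further bulge and hair germ genes had a cluster, with a median of 6.5 against 5.5 for the 10 genes. The most were found for Axin2, a Wnt target, with 18, and Ptch1, the Hedgehog receptor gene, with 17. Col17a1, a hemidesmosome collagen of bulge cells, had 13, and Shh, the ligand of Ptch1, had 5. Fgf18, Bmp6 and Id2 had a single cluster each. Several spread over long distances, with a largest gap of 128631 bp for Runx1, 70752 bp for Gli2 and 62113 bp for Itga6.

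Of 7 isthmus, junctional zone and infundibulum genes, 6 had a cluster under the symbol listed, with 8 for Prdm1 and 2 for Gata6. All 6 genes of the basal epidermis had a cluster, with a median of 3.5, and so did the 3 genes of the companion layer and outer root sheath, with a median of 10. Of 7 dermal papilla genes, which belong to the mesenchymal cells that signal to the follicle, 6 had a cluster, with a median of 2. The 5 endothelial genes had a median of 1. No test was made between these lists, which were chosen with results of this catalogue known.

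**Figure D5:**
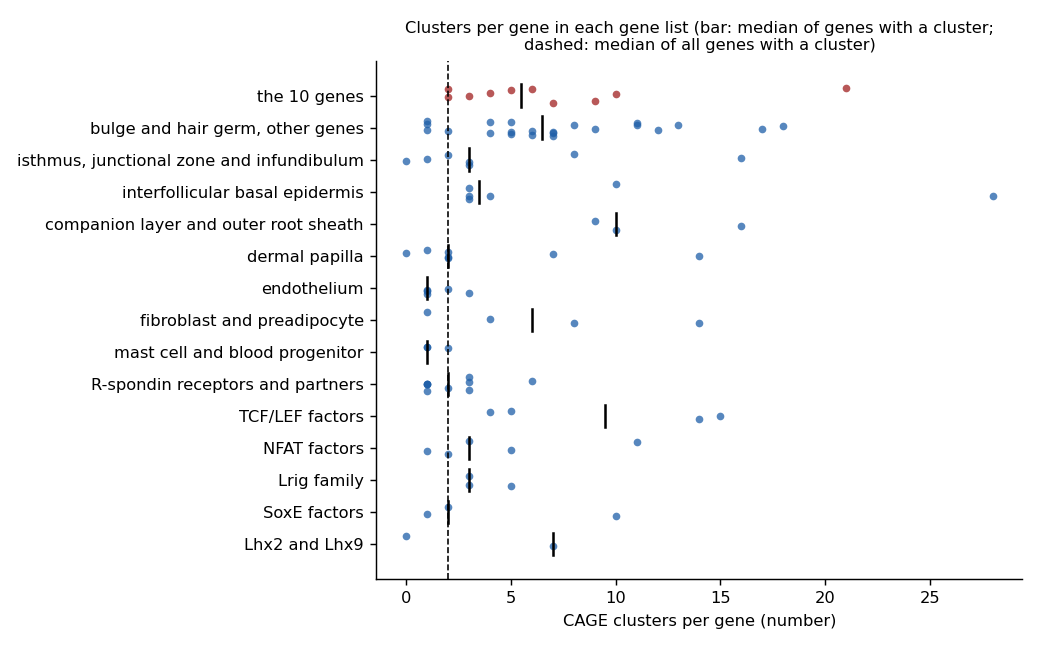
Clusters per gene (horizontal axis, number) for each gene list (vertical axis), 1 point per gene, with genes lacking a cluster at 0. Black bars are the median of the genes with a cluster and the dashed line at 2 is the median of all genes. The 10 genes, in red, have a median of 5.5, and the other bulge and hair germ genes 6.5.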

How the data were processed

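The positions and gene symbols of CAGE tag clusters deposited by the authors as a single table were analysed. The build is mm9 and the tools named are BWA and HISAT2 (versions not given), per the submitters' processing notes. No rule for clustering, filtering or assigning clusters to genes is given in the sources used here, nor is it stated whether starts count from 0 or 1, so coordinates are printed as deposited. The 8 columns of values match no label and were not used, so depth per library was not analysed, and the planned tests of 4 lesional against 4 control samples were not run. The deposited positions and symbols are not measured values, so no error was computed for them.

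Rows were parsed with Python 3.11.15, pandas 2.3.3 and numpy 2.4.6, and drawn with matplotlib 3.10.9. Gaps run from the end of a cluster to the start of the next on the same strand. The counting of clusters and gaps was tested on simulated data. All 10 genes are named. Clusters are named in full for genes with 6 or fewer, otherwise the widest, the outermost and those that part stretches 1000 bp or more apart, and some others were chosen after their values were seen. The genes and lists were chosen with earlier results of these data known, and the motifs after the table was seen. Alternatives were a minimum span of 10 bp, joining at 100 bp, clusters given to 1 gene, and a distance of 500 bp.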

Additional observations from a re-analysis of the deposited data

How the results depend on the processing

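The number of clusters depended on how narrow and neighbouring clusters were treated. Counting only clusters of at least 10 bp left 25 of the 69 clusters of the 10 genes, and joining clusters no more than 100 bp apart left 35. The median per gene then stood at 2 and 2.5, against 1 for all genes in both settings. The count changed by more than 1.5 times for 8 and 7 of the 10 genes. Counting only clusters given to 1 gene changed none of them. The number of genes with neighbouring clusters at least 1000 bp apart went from 4 to 2 with clusters of at least 10 bp. It went to 5 with a distance of 500 bp, which 22.2% of all 16094 genes met. Genes with a single cluster count among the 16094 but cannot meet it. Of the 73 further genes, 68 in place of 70 had a cluster of at least 10 bp. No paired analysis was possible because no column of values carries a name that ties them to the replicate numbers of the labels. The alternatives planned for the comparison of lesional and control skin (pseudocount, filter, normalization, each replicate left out and the replicate block) were not run for the same reason. What sequencing depth limits was not analysed here.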
